A study of Homo sapiens with 9 samples.

Results

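The genes described here are 10 members of the iron- and 2-oxoglutarate-dependent dioxygenases that are not histone lysine demethylases of the KDM series: the DNA dioxygenase genes TET1, TET2 and TET3, the RNA demethylase genes FTO and ALKBH5, and the Jumonji-domain genes JMJD6, JMJD4, JMJD8, MINA and C14orf169. They were taken by name from a table of 25370 gene symbols, and all 10 were among the 15089 genes that passed the filter on low counts. RNA was sequenced from OCI-Ly1, an established human diffuse large B-cell lymphoma line, after a 48 h exposure to vehicle (DMSO) or to JIB-04 at 150 nM or 500 nM, and each group had 3 libraries. JIB-04 is a compound that inhibits histone demethylases of the Jumonji family, whose fold and cofactors the 10 enzymes share. All libraries come from a single line. Whether libraries of 1 group were separate cultures is not in the labels. The p-values therefore rest on the spread among these libraries alone, which may be technical.

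Dioxygenases of this superfamily use iron, oxygen and 2-oxoglutarate to hydroxylate a substrate, and release succinate and carbon dioxide. TET enzymes oxidise methylated cytosine in DNA, which starts its removal, and TET2 is known as a gene that is recurrently mutated in lymphoid and myeloid malignancies. FTO and ALKBH5 remove the methyl group of N6-methyladenosine (m6A), the most abundant internal mark of messenger RNA, which the METTL3 and METTL14 complex writes and YTH-domain proteins read. JMJD6, JMJD4, MINA and C14orf169 hydroxylate proteins of splicing and translation.

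Of the 10 genes, 3 rose and 2 fell at 500 nM JIB-04 against DMSO, and none was called at 150 nM. ALKBH5 rose most of them, by 0.40 ± 0.05 on the log2 scale (SE, n = 3 per group), followed by TET2 and TET3, while JMJD6 and C14orf169 fell. Called means an adjusted p under 0.05 by edgeR's quasi-likelihood test, with adjustment over all tested genes. At 150 nM, 1.27% of all tested genes were called. At 500 nM, 52% of all tested genes were called, 26.3% higher and 25.6% lower, so 5 of 10 is a share near the background. All changes of the 10 genes were under 1.5-fold. The calls of TET3 and C14orf169 at 500 nM against DMSO were lost when certain single libraries were left out.

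The promoters of the 3 genes that rose at 500 nM are shown. TET2 and TET3 each had another window without a motif match, and only the window with a match is shown. Each line gives the 250 bases before an annotated start, from RefSeq (GRCh38.p14), on the strand of the gene. The TET2 window is chr4:105145625-105145874 and the TET3 window chr2:73984660-73984909, and capitals there mark CACGTG, the palindromic E-box bound by MYC and related factors. The ALKBH5 window is chr17:18183578-18183827, where capitals mark GCGC and TGCGC with any 1 base between them, the motif of NRF1, an activator of nuclear genes for mitochondrial proteins. All 3 lie on the plus strand.
TET2: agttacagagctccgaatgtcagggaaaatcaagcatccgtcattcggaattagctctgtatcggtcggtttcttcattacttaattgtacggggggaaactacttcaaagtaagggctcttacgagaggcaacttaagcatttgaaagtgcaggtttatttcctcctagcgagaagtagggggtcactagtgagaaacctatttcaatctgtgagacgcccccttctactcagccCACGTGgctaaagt
TET3: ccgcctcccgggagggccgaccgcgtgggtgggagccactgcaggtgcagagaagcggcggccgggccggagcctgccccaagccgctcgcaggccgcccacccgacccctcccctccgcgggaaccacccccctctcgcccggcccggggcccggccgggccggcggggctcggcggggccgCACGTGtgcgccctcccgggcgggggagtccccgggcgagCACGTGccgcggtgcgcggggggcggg
ALKBH5: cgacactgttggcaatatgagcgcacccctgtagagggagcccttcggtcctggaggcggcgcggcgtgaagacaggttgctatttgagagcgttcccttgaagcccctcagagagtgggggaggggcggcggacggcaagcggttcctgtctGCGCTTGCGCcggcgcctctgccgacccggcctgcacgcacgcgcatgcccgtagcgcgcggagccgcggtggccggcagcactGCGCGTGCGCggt

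The E-box occurred once before TET2 and at 2 places before TET3, and the NRF1 motif at 2 places before ALKBH5. Motifs were searched on both strands. Of 35116 windows of this length, 6.34% held the E-box and 5.08% the NRF1 motif. These shares are per window, and a gene with more than 1 window has more places for a match. The other motifs searched, the cAMP response element TGACGTCA (1.65% of windows) and the C/EBP-ATF element TGATGNAAN (3.13%), were matched in none of the 11 windows of the 7 members found in the table. JMJD4, which was not called, held the NRF1 motif at 1 place, and the windows of FTO, JMJD8 and TET1 held none of the 4 motifs. A second window each of TET2 and TET3 held none either. JMJD6, C14orf169 and MINA had no window, so the members that fell could not be searched. A match is a string of letters and not a measured binding site.

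Depth ran from 28476845 to 57198613 counts per library, with DMSO replicate 2 the shallowest. Levels are in CPM, counts scaled to library size with edgeR's TMM factors, a unit that compares libraries but not genes of unlike length. The 9 B-cell markers were all detected and summed to 2360 to 2420 CPM in DMSO, 2360 to 2450 at 150 nM and 1980 to 2050 at 500 nM. The 15 markers of other cell types summed to 29.6 to 33.1 CPM in DMSO, 24.2 to 27.3 at 150 nM and 13.6 to 14.8 at 500 nM. Of these, MPO and HBB were at 0 in all 9 libraries. Of 8 tested marker genes of other cells, 5 fell at 500 nM and none rose, beside 25.6% and 26.3% of tested genes. CD3G (-1.33 ± 0.13), CD3D (-1.47 ± 0.17), CD2 (-3.58 ± 0.57, at 0.77 CPM in DMSO), EPCAM (-0.63 ± 0.17) and PECAM1 (-1.52 ± 0.22) fell. CD3E was not called (0.21 ± 0.47, at 0.427 CPM in DMSO). Of the 9 B-cell markers, 4 fell and 1 rose. The part of these markers in the results was not tested. In bulk RNA, fewer cells of a type and less RNA per cell cannot be told apart.

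**Figure D1:**
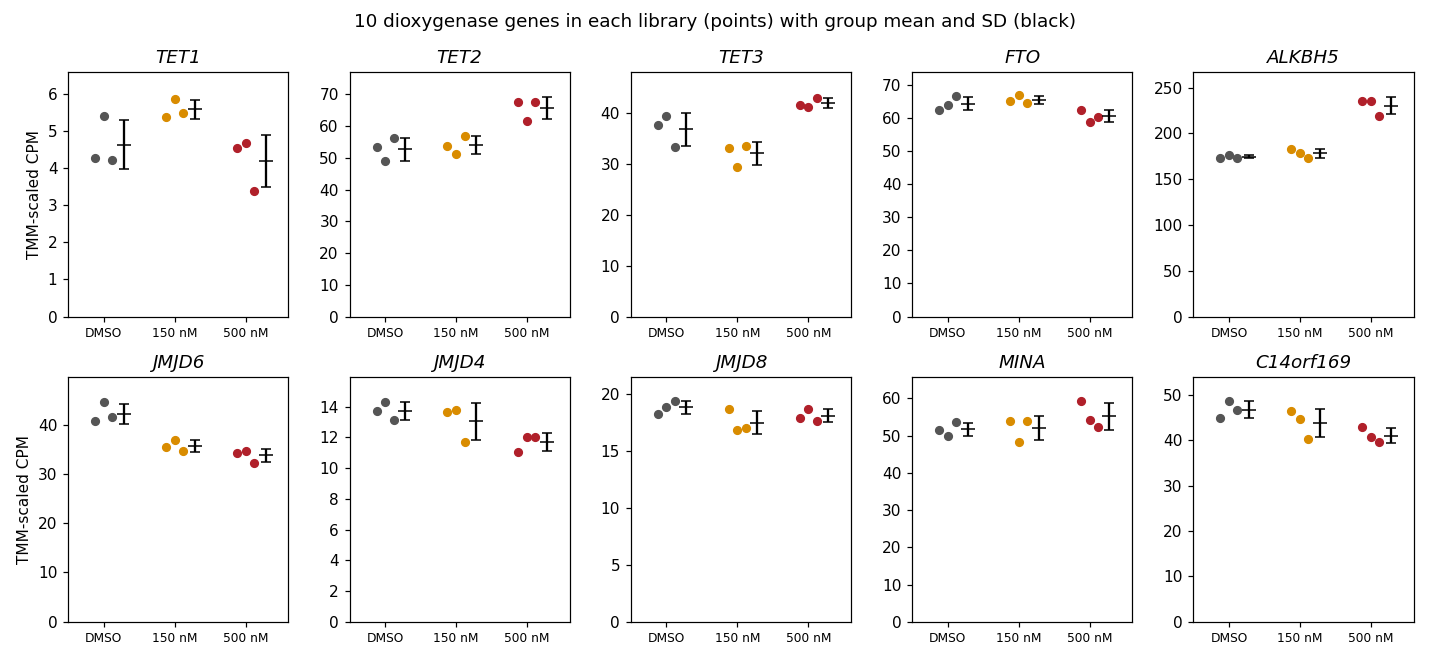
TMM-scaled CPM of the 10 genes in each of 9 libraries (points, by treatment), with the group mean and SD in black. ALKBH5 stood at 219 to 236 CPM in the 500 nM libraries, above the 173 to 183 CPM of the other 6, and JMJD6 stood lower in both JIB-04 groups than in DMSO.

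Among the DNA dioxygenases, TET2 had the highest signal. TET2 was measured at 53.3, 48.9 and 56.1 CPM in the DMSO libraries, at 53.8, 51.4 and 57.1 CPM with 150 nM and at 67.5, 61.6 and 67.7 CPM with 500 nM. The 500 nM libraries lay above all others, and the 150 nM libraries overlapped DMSO. TET2 rose at 500 nM by 0.31 ± 0.07 on the log2 scale against DMSO (adjusted p = 0.000466) and by 0.28 ± 0.07 against 150 nM (adjusted p = 0.00159). Its change at 150 nM was 0.03 ± 0.07, with a 95% interval of -0.11 to 0.18. Both calls held under all 18 alternatives, at 0.26 to 0.45 against DMSO and 0.24 to 0.40 against 150 nM.

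TET3, the family member known for oxidising the paternal genome in the zygote, took an uneven course over the doses. TET3 stood at 37.6, 39.4 and 33.2 CPM in DMSO, at 33.1, 29.4 and 33.5 CPM at 150 nM and at 41.6, 41.1 and 42.9 CPM at 500 nM. The 500 nM libraries did not overlap either other group, while DMSO replicate 3 lay within the range at 150 nM. The difference of 500 nM from 150 nM was called (0.39 ± 0.08, adjusted p = 0.000199) and held under all 18 alternatives (0.32 to 0.51). Against DMSO the increase was 0.19 ± 0.08 (adjusted p = 0.0431), and that call was lost without DMSO replicate 1 (adjusted p = 0.0513) or 3 (0.247), without 150 nM replicate 2 (0.051) and without 500 nM replicate 1, 2 or 3 (0.0854, 0.0643 and 0.129). At 150 nM the log2 value was -0.20 ± 0.08 against DMSO (adjusted p = 0.349), with a 95% interval of -0.36 to -0.03.

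TET1, which unlike TET2 carries a CXXC domain that binds CpG-rich DNA, was the least abundant of the 10, with 147 to 273 counts per library. Its libraries stood at 4.27, 5.39 and 4.21 CPM in DMSO, at 5.38, 5.86 and 5.48 CPM at 150 nM and at 4.53, 4.66 and 3.38 CPM at 500 nM. The 150 nM libraries lay above those at 500 nM, and DMSO overlapped both. TET1 was lower at 500 nM than at 150 nM (-0.41 ± 0.16, adjusted p = 0.039), a call that was lost when any single 150 nM library was left out (adjusted p = 0.0506, 0.116 and 0.0668 without replicate 1, 2 and 3), without 500 nM replicate 3 (-0.28, adjusted p = 0.206), under total-count scaling (0.143) and with GC trends removed (0.0672). Against DMSO its log2 values were 0.28 ± 0.17 at 150 nM (95% interval -0.06 to 0.62) and -0.13 ± 0.17 at 500 nM (-0.47 to 0.21), neither called (adjusted p = 0.607 and 0.523).

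Per kilobase of its longest transcript, TET2 made up 58.3% ± 3.85 (SD, n = 3) of the TET signal in DMSO, TET3 36.2% ± 3.17 and TET1 5.60% ± 0.87. At 500 nM the shares were 61.0% ± 1.18, 34.8% ± 0.81 and 4.27% ± 0.78. The TET2 share ranged from 54.4% to 62.1% in DMSO and from 59.6% to 61.7% at 500 nM, so the groups overlapped. Per kilobase of coding sequence, the DMSO shares were 53.6% ± 3.95 for TET2 (49.7% to 57.6%), 42.0% ± 3.43 for TET3 and 4.47% ± 0.64 for TET1. The unscaled sum of the 3 genes was 93.5 to 95.2 CPM in DMSO, 86.6 to 96.0 CPM at 150 nM and 107.3 to 114.1 CPM at 500 nM, where it lay above the other libraries.

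At 500 nM against DMSO, the RNA demethylase gene ALKBH5 had the largest log2 change of the 10 and the smallest standard error. ALKBH5 stood at 173, 177 and 173 CPM in DMSO, at 183, 178 and 173 CPM at 150 nM and at 235, 236 and 219 CPM at 500 nM. The 500 nM libraries lay apart from the other 6, which overlapped. The increase at 500 nM of 0.40 ± 0.05 against DMSO (adjusted p = 1.66e-07, 1.32-fold) exceeded the log2 change of 77.2% of tested genes. Against 150 nM it was 0.37 ± 0.05 (adjusted p = 8.31e-07), and at 150 nM the log2 value was 0.03 ± 0.05 against DMSO, with a 95% interval of -0.08 to 0.13. Both calls at 500 nM held under all 18 alternatives, at 0.38 to 0.54 and 0.31 to 0.49. Exons of ALKBH5 overlap an antisense transcript over 11.2% of their bases in GENCODE v29, and no source used here gives the strand setting of the counting.

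FTO, the other m6A demethylase, moved little. FTO stood at 62.6, 64.0 and 66.6 CPM in DMSO, at 65.2, 66.9 and 64.5 CPM at 150 nM and at 62.5, 59.0 and 60.3 CPM at 500 nM. The highest 500 nM library lay just under the lowest DMSO library. The log2 value was -0.09 ± 0.06 at 500 nM against DMSO (adjusted p = 0.242, 95% interval -0.22 to 0.04) and 0.03 ± 0.06 at 150 nM (adjusted p = 0.938, -0.10 to 0.15). The first value was 0.05 under total-count scaling.

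Ratios taken within a library do not depend on how libraries were scaled. The log2 ratio of FTO to ALKBH5 counts was -1.47, -1.46 and -1.38 in DMSO, -1.49, -1.41 and -1.43 at 150 nM and -1.93 ± 0.07 at 500 nM (SD, n = 3). All 500 nM libraries were lower, the highest at -1.86, and their mean differed from DMSO by -0.49. The log2 ratio of ALKBH5 to METTL3, the catalytic writer of m6A, was 1.07 ± 0.07 in DMSO (SD, n = 3), 1.16 ± 0.03 at 150 nM and 1.62 ± 0.02 at 500 nM, with no overlap of either dose with DMSO. For both ratios at 500 nM the two-sided exact permutation p was 0.1, the smallest that 3 against 3 libraries allow, and 0.28 adjusted over 14 tests. The ratio of FTO to METTL3 overlapped between all groups, at -0.37 ± 0.10 in DMSO and -0.31 ± 0.05 at 500 nM (exact p = 0.6). Among the TET genes, the log2 ratio of TET1 to TET3 was -2.99 ± 0.14 in DMSO and -2.52 ± 0.17 at 150 nM without overlap (exact p = 0.1, adjusted 0.28), and -3.33 ± 0.29 at 500 nM.

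**Figure D2:**
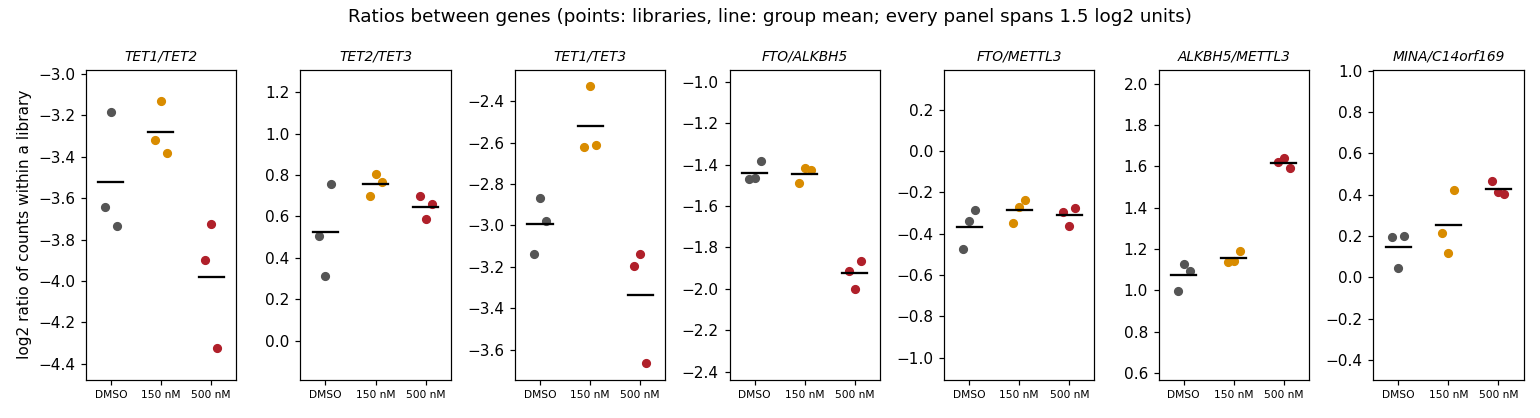
Log2 ratios of the counts of 2 genes within each library (points) with group means (lines), 7 ratios by treatment, each panel spanning the same range. The FTO to ALKBH5 ratio was lower and the ALKBH5 to METTL3 ratio higher in the 3 libraries at 500 nM, while FTO to METTL3 overlapped between the groups.

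JMJD6, a lysyl hydroxylase that modifies the splicing factor U2AF2, fell. JMJD6 stood at 40.6, 44.5 and 41.5 CPM in DMSO, at 35.5, 36.9 and 34.6 CPM at 150 nM and at 34.3, 34.7 and 32.3 CPM at 500 nM. All 6 JIB-04 libraries lay below the 3 DMSO libraries, and the doses overlapped. The decrease at 500 nM was called (-0.32 ± 0.07, adjusted p = 0.00056) and held under all 18 alternatives (-0.35 to -0.18). At 150 nM the log2 value was -0.24 ± 0.07 (unadjusted p = 0.00292, adjusted p = 0.128), and no alternative called it (adjusted p = 0.0516 to 0.5). The doses differed by -0.08 ± 0.07, with a 95% interval of -0.23 to 0.07.

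The ribosomal oxygenases are MINA, which hydroxylates a histidine of RPL27A, and C14orf169, which does so on RPL8. C14orf169 stood at 44.8, 48.5 and 46.7 CPM in DMSO, at 46.4, 44.6 and 40.3 CPM at 150 nM and at 42.9, 40.6 and 39.5 CPM at 500 nM. The 500 nM libraries lay below DMSO, and those at 150 nM spanned both. C14orf169 fell at 500 nM (-0.19 ± 0.07, adjusted p = 0.0346), a call lost under total-count scaling (-0.05, adjusted p = 0.617), without DMSO replicate 2 or 3 (0.113 and 0.0606) and without 500 nM replicate 2 or 3 (0.0831 and 0.126). MINA stood at 51.7 ± 1.81 CPM in DMSO (SD, n = 3), 52.1 ± 3.21 CPM at 150 nM and 55.2 ± 3.57 CPM at 500 nM, with overlap between all groups. Its log2 value at 500 nM was 0.10 ± 0.07 (adjusted p = 0.27), and it was called higher under total-count scaling (0.23, adjusted p = 0.00628). The log2 ratio of MINA to C14orf169 was 0.20, 0.04 and 0.20 in DMSO and 0.47, 0.41 and 0.40 at 500 nM, without overlap (exact p = 0.1, adjusted 0.28). Exons of MINA overlap those of CRYBG3 on the opposite strand over 27.6% of their bases, and CRYBG3 rose at 500 nM (0.59 ± 0.14), at 5.62 CPM in DMSO and 8.52 CPM at 500 nM.

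JMJD4, which hydroxylates the translation termination factor ETF1, stood at 13.1 to 14.3 CPM in DMSO, 11.7 to 13.8 CPM at 150 nM and 11.05 to 12.03 CPM at 500 nM. The 500 nM libraries lay below DMSO, but the gene was not called (-0.23 ± 0.10, adjusted p = 0.0706) except with GC trends removed (-0.36, adjusted p = 0.00169). JMJD8, a Jumonji protein of the endoplasmic reticulum, stood at 18.2 to 19.4 CPM in DMSO, 16.8 to 18.6 CPM at 150 nM and 17.6 to 18.7 CPM at 500 nM, and the 500 nM libraries overlapped both other groups. Its log2 value at 500 nM was -0.06 ± 0.09 (adjusted p = 0.607, 95% interval -0.24 to 0.12), and it was called lower with GC trends removed (-0.22, adjusted p = 0.0282). More than any other member, these 2 share exon bases with a neighbour on the opposite strand. JMJD4 shares 53.8% of its exonic bases with SNAP47, which rose at 500 nM (0.38 ± 0.08), and JMJD8 shares 37.4% with STUB1, which rose too (0.24 ± 0.10). No source used here says how reads of shared bases were assigned, so the values of these 2 genes are uncertain.

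**Figure D3:**
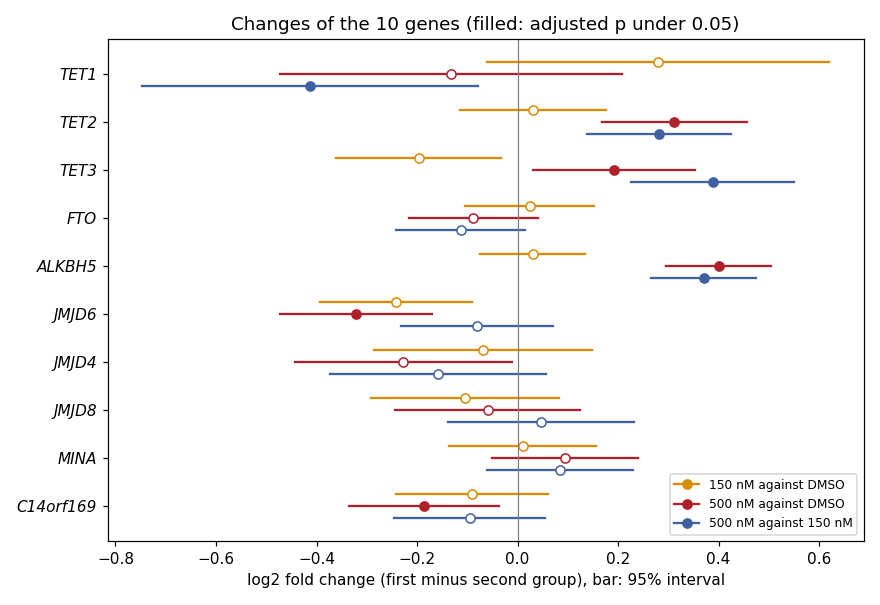
Log2 fold changes of the 10 genes in the 3 comparisons (points, first minus second group) with 95% intervals, filled where the adjusted p was under 0.05. At 150 nM no gene was called against DMSO; at 500 nM ALKBH5, TET2 and TET3 lay above 0, and JMJD6 and C14orf169 below.

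Counted over the members, 10 of 10 were tested. At 150 nM edgeR, DESeq2 and limma-voom each called 0, beside 1.27% of all tested genes called by edgeR. An unadjusted p under 0.05 by edgeR was reached by 2 members (TET3 and JMJD6). The share of all tested genes at that unadjusted threshold is not given here. JMJD6 was the 1 member whose libraries at 150 nM and DMSO did not overlap, being lower, and none was higher, beside 7.32% and 6.41% of tested genes. Their median log2 fold change was -0.03, against 0.00 over all tested genes. At 500 nM the same 3 tools each called 5, 3 higher and 2 lower, with a median of -0.07 against 0.01. The libraries of 500 nM and DMSO did not overlap for 3 members that were higher and 4 that were lower (C14orf169, FTO, JMJD4 and JMJD6), beside 30.2% and 29% of tested genes. Between the doses, 3 members were called higher at 500 nM (ALKBH5, TET2 and TET3) and 1 lower (TET1), beside 23.7% and 22.8% of tested genes, or 46.5% in either direction. Without overlap between the doses were 3 that were higher and 2 that were lower (TET1 and FTO), beside 29% and 26%. Total-count scaling moved the median of all tested genes at 500 nM against DMSO to 0.15. It called 4 members higher and 1 lower there, beside 5716 and 2514 of all tested genes. With GC trends removed, 3 members were called higher and 4 lower at 500 nM against DMSO, beside 4266 and 4322 of all tested genes. Under that setting 4 were higher and 2 lower between the doses, beside 3801 and 3924. The comparisons share libraries. Without DMSO replicate 3, 500 nM replicate 2 or 500 nM replicate 3, the count at 500 nM against DMSO was 3.

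Levels can be set beside each other only per length. In DMSO, the CPM per kilobase of the longest GENCODE v29 transcript was 63.5 ± 0.64 (SD, n = 3) for ALKBH5, 19.2 ± 0.80 for C14orf169, 9.65 ± 0.33 for MINA, 9.23 ± 0.28 for JMJD8 and 7.65 ± 0.37 for JMJD6. It was 5.47 ± 0.17 for FTO, 5.28 ± 0.23 for JMJD4, 5.19 ± 0.36 for TET2, 3.22 ± 0.28 for TET3 and 0.498 ± 0.071 for TET1. MINA and JMJD8 overlapped, as did FTO, JMJD4 and TET2, and the other neighbours in this order did not. At 500 nM TET2 (6.45 ± 0.34) stood in the order next to JMJD6 (6.12 ± 0.24), with overlapping libraries. Per kilobase of coding sequence, the order in DMSO began with ALKBH5 (148 ± 1.2), FTO (38.4 ± 1.2) and MINA (37.0 ± 1.3) and ended with TET2 (8.70 ± 0.60), TET3 (6.82 ± 0.59) and TET1 (0.722 ± 0.10). The place of FTO rests on the length used, since its longest transcript has 11766 bases and its coding sequence 1677.

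Genes of the DNA methylation cycle and the TET pathway moved in both directions at 500 nM. Of 18 tested, 5 rose and 6 fell, a share of 61.1% called beside 52% of all tested genes. Under total-count scaling 7 rose and 5 fell, beside 5716 higher and 2514 lower of 15089 tested genes. DNMT3A, which methylates unmethylated DNA, rose from 12.4 to 22.1 CPM (0.83 ± 0.10), OGT, a glycosyltransferase that binds TET proteins, by 0.55 ± 0.05, and UHRF2 by 0.50 ± 0.06. TDG, the glycosylase that excises the oxidised bases TET enzymes make, fell from 63.6 to 37.9 CPM (-0.75 ± 0.07), and APEX1, the endonuclease that acts after it, from 153 to 90.5 CPM (-0.76 ± 0.06). The maintenance methyltransferase gene DNMT1 (-0.07 ± 0.05) and DNMT3B (-0.12 ± 0.08) were not called (adjusted p = 0.23 and 0.249). At 150 nM the 3 tools edgeR, DESeq2 and limma-voom called none, beside 1.27% of all tested genes called by edgeR. The unadjusted p of 1 gene was under 0.05, and the share of all tested genes at that threshold is not given here. OGT was called higher at 150 nM under 5 alternatives, among them the fits without DMSO replicate 3 (0.23, adjusted p = 0.0184) and without 150 nM replicate 1 (0.18, adjusted p = 0.041).

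Of 10 m6A writers, 6 fell at 500 nM and none rose by edgeR, beside 25.6% and 26.3% of tested genes. The 60% called stood near the 52% of all tested genes. Their median log2 fold change was -0.15, against 0.01 over all tested genes. Under total-count scaling 0 were called, beside 5716 higher and 2514 lower of 15089 tested genes. WTAP, a regulatory subunit, fell by 0.21 ± 0.05 on the log2 scale and ZC3H13 by 0.23 ± 0.06. METTL3 stood at 83.1 CPM in DMSO and 75.1 at 500 nM (-0.15 ± 0.06, adjusted p = 0.0464), a call lost under total-count scaling (-0.01, adjusted p = 0.932), under both other filters (0.0628 and 0.0604) and without DMSO replicate 1 or 2, 150 nM replicate 2 or any single 500 nM library (0.0501 to 0.174). Its partner METTL14 was not called (-0.13 ± 0.08, adjusted p = 0.175). Of 10 m6A readers 5 fell and 1 rose, again 60% called beside the 52% of all tested genes. HNRNPA2B1, a nuclear RNA-binding protein, fell from 1790 to 892 CPM (adjusted p = 1.24e-15) and HNRNPC by 0.51 ± 0.05. IGF2BP2, the reader that rose, had few counts, 9 in all in DMSO and 89 at 500 nM. At 150 nM no writer or reader was called by any of the 3 tools, beside 1.27% of all tested genes called by edgeR. An unadjusted p under 0.05 by edgeR was reached by 0 writers and 1 reader. The share of all tested genes at that threshold is not given here.

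Of 23 genes that make or use 2-oxoglutarate, 2 rose and 16 fell at 500 nM, with a median of -0.19, beside 26.3% and 25.6% of tested genes. Under total-count scaling 5 rose and 8 fell, beside 5716 higher and 2514 lower of 15089 tested genes. IDH2, which makes 2-oxoglutarate in mitochondria, fell from 191 to 115 CPM (-0.73 ± 0.06), and OGDH, which consumes it, from 255 to 161 CPM (-0.66 ± 0.06). The cytosolic IDH1 was not called (-0.06 ± 0.06, adjusted p = 0.448). GPT2, an aminotransferase that pairs glutamate with 2-oxoglutarate, rose at both doses, by 0.33 ± 0.06 at 150 nM (adjusted p = 0.00117) and 1.33 ± 0.06 at 500 nM, and GOT1 rose at 500 nM (0.63 ± 0.07).

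Among 6 genes of proteins that the Jumonji members modify or bind, 4 fell at 500 nM. Of all tested genes, 25.6% fell there. Under total-count scaling 3 of the 6 fell, beside 2514 of 15089 tested genes. U2AF2 fell by 0.33 ± 0.05 on the log2 scale. RPL27A (-0.55 ± 0.05), RPL8 (-0.41 ± 0.05) and ETF1 (-0.20 ± 0.05) fell, ETF1 not under total-count scaling (-0.06, adjusted p = 0.342). None of the 6 was called at 150 nM by the 3 tools, beside 1.27% of all tested genes called by edgeR. An unadjusted p under 0.05 was reached by 0 of them, and the share of all tested genes at that threshold is not given here. Reads of RPL27A and RPL8 can also fall to their processed pseudogenes, so these values are uncertain.

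Of 34 other 2-oxoglutarate dioxygenases outside the KDM series, 28 were tested, and 10 rose and 4 fell at 500 nM. That is a share of 50% called beside 52% of all tested genes. Under total-count scaling 12 rose and 1 fell, beside 5716 higher and 2514 lower of 15089 tested genes. In the main fit the median of the 28 was 0.16, where that of the 10 members was -0.07 (the difference was not tested). ASPHD2 rose from 10.9 to 33.7 CPM (1.63 ± 0.10) and PLOD3, a collagen lysyl hydroxylase, from 6.30 to 11.7 CPM (0.89 ± 0.13). BBOX1, the last enzyme of carnitine synthesis, fell from 117 to 52.0 CPM (-1.17 ± 0.06), and OGFOD1, a prolyl hydroxylase of a ribosomal protein, by 0.25 ± 0.06, which was not called under total-count scaling (-0.11, adjusted p = 0.0866). The count of 4 lower was 2 without DMSO replicate 2. ASPHD2 was the single gene of the 28 called at 150 nM (0.40 ± 0.10, adjusted p = 0.0433), beside 1.27% of all tested genes. That call was lost by limma-voom (0.14), in the fit of only 6 libraries (0.148) and when any single library other than 150 nM replicate 1 was left out (0.0557 to 0.408).

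**Figure D4:**
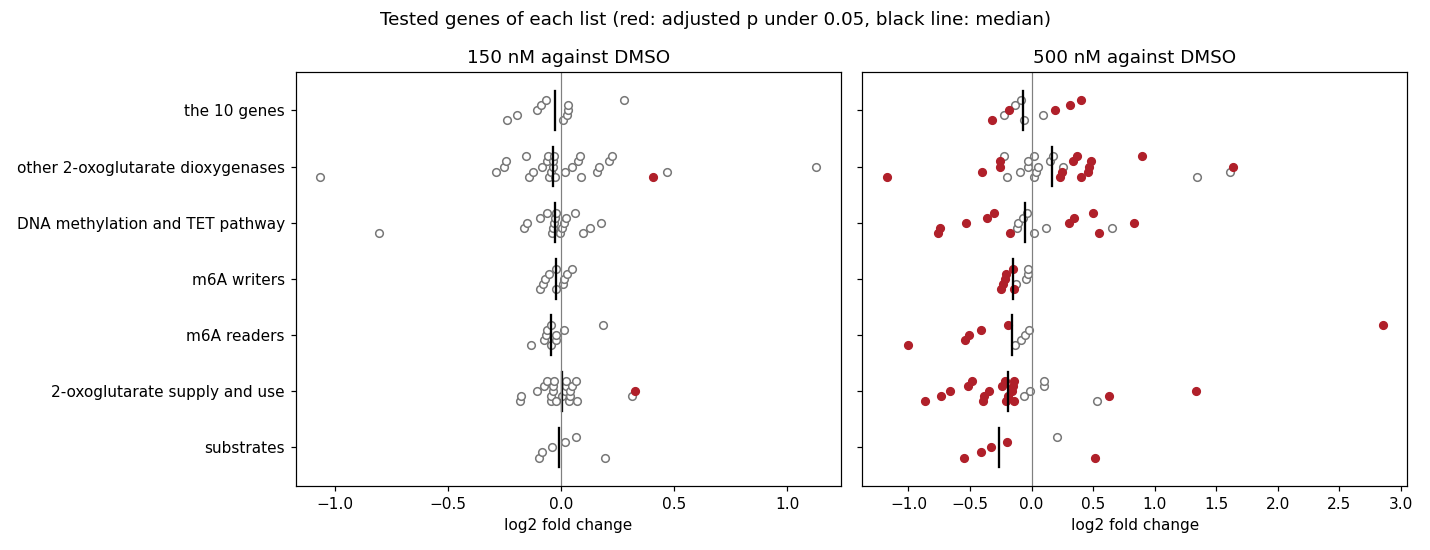
Log2 fold changes of the tested genes of each list at 150 nM (left) and 500 nM (right) against DMSO, with 1 point per gene, red where the adjusted p was under 0.05, and the list median as a black line. The 10 genes lie within -0.32 to 0.40 at 500 nM, and genes of 2-oxoglutarate supply lie mostly below 0.

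The genes whose log2 CPM followed the members most closely over the 9 libraries were found by Pearson's r, as a description over libraries that share 3 treatments. Each is 1 of the top 2 picked from the tested genes, so its r is high partly through that choice and was not tested. A high r does not mean a like size of change: at 500 nM against DMSO, MTUS2 moved by 1.38 and TET3 by 0.19. ALKBH5 was followed by GFOD1 and ATRN (r = 0.996 each), TET2 by MFSD6 (0.980) and MRPL48 (0.976), and JMJD6 by MAP3K8 (0.972) and SPDYE3 (0.940). TET3 was followed by TERF2 (0.954) and MTUS2 (0.950), and TET1 by TPI1P3 (0.928) and TRIM58 (0.922). FTO was followed by OR10A4 and UAP1 (0.945 each), which fell to 0.341 and 0.193 under total-count scaling.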

How the data were processed

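RNA of OCI-Ly1 cells was sequenced after ribosomal RNA depletion, per the labels' protocols, in 9 libraries, which were grouped by their titles. The authors deposited raw counts, 1 value per gene symbol and library. Per the submitters' processing notes, featureCounts 1.4.6 from Subread, Bowtie2 2.2.6 and TopHat2 2.0.14 are named, with hg19 and mm10 listed as builds, without roles. No source used here gives the annotation or the strand setting. Gene lengths, GC content and exon overlaps come from GENCODE v29 (GRCh38), which is not the build of the counts, so the overlaps may differ from those at counting.

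Genes were kept by filterByExpr at a count of 10 and a total of 15, and counts were scaled by TMM and fitted with edgeR 4.0.16 (R 4.3.3) as a robust quasi-likelihood model over all 9 libraries, with Benjamini-Hochberg adjustment over tested genes. The standard error is the unshrunk change over the root of the F statistic. The fit was tested on simulated data. Alternatives were DESeq2 1.42.0, limma-voom (limma 3.58.1), DESeq2 size factors, total-count scaling, keeping all genes, requiring 1 CPM in 3 libraries, fitting only the 6 libraries compared, a replicate block, removal of each library's GC trend (lowess span 0.3) and leaving out each library. Within groups, library pairs differed beyond sampling noise (chi-square per degree of freedom 6.59 to 16.05). Counts are of reads, without molecular identifiers.

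The members and lists were chosen with earlier results of these data known. Named were the 10 members, 13 fixed genes of the related lists, and up to 2 called genes per list, direction and dose. The 2 genes most like each of 6 members were also named, with unnamed loci left out. All called markers of other cell types were named too. A gene of these lists is not reported here.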

Additional observations from a re-analysis of the deposited data

How the results depend on the processing

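Over 18 alternatives and 3 comparisons, 516 of 540 values of the 10 genes kept their side of the threshold, 17 lost a call and 7 gained one. No called value changed sign, and 15 uncalled values did. The number of genes called at 150 nM against DMSO, 192, was 320 without a filter, 101 in the fit of only 6 libraries and 359 with GC trends removed, and 98 to 545 when 1 library was left out (98 without 150 nM replicate 2, 107 without DMSO replicate 2, 545 without 150 nM replicate 1). The members called at 500 nM against DMSO were 3 to 5 when 1 library was left out. Total-count scaling moved the median log2 fold change of all genes at 500 nM from 0.01 to 0.15 against DMSO and from 0.01 to 0.13 against 150 nM, and the share of called genes that were higher from 50.7% to 69.5% and from 50.9% to 71.1%. Whether replicate numbers pair the libraries was not settled. Deviations of the 9 same-numbered pairs correlated at -0.052 to 0.104 (median -0.004). Those of the 18 other pairs correlated at -0.083 to 0.035 (median 5e-04). Of 9 libraries, 5 correlated best with their own number. With the replicate number as a block, 308 genes were called at 150 nM, 8133 at 500 nM against DMSO and 7386 between the doses, and no member's call changed. At 3.38 to 5.86 CPM, TET1 has the widest intervals of the members.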

Other observations

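Within the AlkB family, to which FTO and ALKBH5 belong, the other members did not move as a block at 500 nM JIB-04. These genes were chosen from the list after their values were seen. ALKBH8, which modifies wobble uridines of transfer RNA, rose from 39.6 to 54.5 CPM (0.46 ± 0.07 on the log2 scale, adjusted p = 5.97e-06), and ALKBH6 rose from 8.96 to 11.6 CPM (0.37 ± 0.11, adjusted p = 0.00784). ALKBH4 fell from 31.2 to 26.1 CPM (-0.26 ± 0.09, adjusted p = 0.0137), a call lost under total-count scaling (-0.12, adjusted p = 0.252) and without DMSO replicate 2 (0.09) or 500 nM replicate 3 (0.103). ALKBH1 (0.05 ± 0.08), ALKBH2 (0.02 ± 0.09) and ALKBH7 (0.04 ± 0.10) were not called, and ALKBH3 did not pass the filter.

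Of the enzymes that hydroxylate hypoxia-inducible factors, EGLN1 was 49.0 CPM in DMSO, 44.3 at 150 nM and 57.5 at 500 nM. It rose at 500 nM against DMSO (0.23 ± 0.08, adjusted p = 0.0165), a call lost when DMSO replicate 1 (0.13) or 500 nM replicate 3 (0.085) was left out, and against 150 nM (0.38 ± 0.08, adjusted p = 0.000345). HIF1AN was not called against DMSO (0.02 ± 0.08, adjusted p = 0.861). EGLN2 was at 0.123 CPM in DMSO, and EGLN3 did not pass the filter.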
